A study of Mus musculus with 16 samples.

Results

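The AMPA and kainate receptor subunits are a family of 9 genes, 4 for AMPA receptors (Gria1 to Gria4) and 5 for kainate receptors (Grik1 to Grik5), chosen by symbol from the 24062 genes of the count table. All 9 were also in the FPKM table (mapped fragments of a gene over its transcript length and the library's total), and all 9 passed the filter on low counts in every comparison. The values come from RNA-seq of whole brains, cerebellum included, of 16 females of the inbred mouse strain C57BL/6J, killed on postnatal day 45. There were 4 mice in each of 4 groups, all singly housed and picked at random from the mice of a drinking experiment. The Water-Water (WW) mice were given tap water only. The Nicotine-Water (NW) mice had 200 µg/ml nicotine in tap water for 22 h a day and water in the short daily session. The Water-Ethanol mice (the plots give this group by its initials) had tap water for 22 h and 20% v/v ethanol in the short session, which lasted 2 h on each of 3 days and 4 h on the last day. The Nicotine-Ethanol (NE) mice had both. Mice drank at will, but at any time only 1 kind of fluid was offered, so nicotine was the only fluid in its 22 h. Nicotine began on days before the first ethanol session and went on through the days with ethanol. Brains were taken at the end of the last session, so mice given nicotine had been without it for 4 h. Mice given ethanol had it on offer during those 4 h. The paper names withdrawal from nicotine as a possible source of effects in the nicotine group, and intake and withdrawal cannot be told apart here. All groups share 1 sex, 1 strain and single housing. Mice are named here by the number in their sample title.

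AMPA and kainate receptors are cation channels opened by glutamate, the main excitatory transmitter of the brain, and each channel is a tetramer of subunits. AMPA receptors carry most of the fast excitatory current at synapses. GluA2, the product of Gria2, makes a channel nearly impermeable to calcium once its transcript has been edited, while channels without it pass calcium. Kainate receptors sit on both sides of the synapse and tune transmitter release and excitability. Grik1, Grik2 and Grik3 encode the subunits that can form channels on their own, and Grik4 and Grik5 encode high-affinity subunits that work only together with those.

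The subunit genes descend from a common ancestor, so their coding sequences were compared to see whether reads could be assigned to the wrong member. The coding stretch shared letter for letter between members was longest for Gria3 and Gria4, at 50 bases, against a read length of 150 bases in the labels. Over the 6 pairs of AMPA genes it ran from 22 to 50 bases, over the 10 pairs of kainate genes from 13 to 38, and over the 20 pairs with 1 gene of each kind from 13 to 29. No window of 150 bases in any annotated transcript of the 9 genes, 5319 to 15993 windows a gene, was found in a transcript of another gene. The 38 bases shared by Grik3 and Grik5 lie in the part of the gene that encodes the third membrane-spanning segment, the most conserved stretch of ionotropic glutamate receptors. They are shown for every member, since they are the longest stretch that kainate genes share, with capitals for the bases that differ from the stretch shared by Grik3 and Grik5 (5′ to 3′ on the coding strand, from GENCODE transcripts on GRCm38).
Gria1: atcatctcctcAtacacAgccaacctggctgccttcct
Gria2: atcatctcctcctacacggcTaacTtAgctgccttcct
Gria3: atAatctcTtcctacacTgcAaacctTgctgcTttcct
Gria4: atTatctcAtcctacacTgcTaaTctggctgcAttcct
Grik1: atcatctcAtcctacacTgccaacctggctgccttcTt
Grik2: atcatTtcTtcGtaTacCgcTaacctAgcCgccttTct
Grik3: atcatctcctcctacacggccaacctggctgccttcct
Grik4: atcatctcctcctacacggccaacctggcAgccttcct
Grik5: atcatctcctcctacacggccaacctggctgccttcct
Grik2 differed at 9 of the 38 bases, Gria3 and Gria4 at 6 each, Gria2 and Grik1 at 3 each, Gria1 at 2 and Grik4 at 1. The stretch lies within 1 coding exon in each gene, at chr10:49240688-49240725 on the minus strand for Grik2, chr4:125694033-125694070 on the plus strand for Grik3 and chr7:25015917-25015954 on the minus strand for Grik5.

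The longest shared stretch of the AMPA genes lies further along the coding sequence, in the part that encodes the ligand-binding domain, and is shown for the 4 AMPA genes with capitals for the bases that differ from Gria3 and Gria4.
Gria1: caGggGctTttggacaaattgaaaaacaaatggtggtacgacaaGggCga
Gria2: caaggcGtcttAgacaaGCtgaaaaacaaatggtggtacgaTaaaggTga
Gria3: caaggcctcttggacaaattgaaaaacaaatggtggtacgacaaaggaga
Gria4: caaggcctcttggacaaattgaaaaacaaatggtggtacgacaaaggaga
Gria1 differed from it at 5 of the 50 bases and Gria2 at 6. The stretch lies at chr11:57309806-57309855 on the plus strand in Gria1, chr3:80690432-80690481 on the minus strand in Gria2, chrX:41654847-41654896 on the plus strand in Gria3 and chr9:4432801-4432850 on the minus strand in Gria4.

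The members are spread over 8 chromosomes of GRCm38 and only Gria4 and Grik4 share one, chromosome 9. By the exons of the count table, Grik2 (ENSMUSG00000056073) spans chr10:49099463-49788754 on the minus strand and has 18 exons, Gria2 (ENSMUSG00000033981) spans chr3:80684936-80802791 on the minus strand with 17 exons, and Gria4 (ENSMUSG00000025892) spans chr9:4417893-4796234 on the minus strand with 19. All 9 are long genes, from 62.5 kb for Grik5 to 689.3 kb for Grik2, against a median span of 14.7 kb over the table. No exon of a member overlapped an exon of another gene in the table. GC content of the longest transcript ran from 36.8% in Gria2 and 37.9% in Grik2 to 61.7% in Grik5, and the median of the genes tested was 49.8%.

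Total counts ran from 27100352 to 32880979 per mouse, and no pair of libraries held identical counts. The cerebellar marker genes were expressed in every library, 8 of 8 for granule cells and 5 of 5 for Purkinje cells, yet 2 libraries stood apart. Scores here are the mean of a list's centred log2 CPM, the counts scaled to library size. The granule cell score was -1.28 in WW mouse 21 and -0.92 in NW mouse 10, against 0.03 to 0.24 in the other 14 mice, and the Purkinje cell score was -1.45 and -0.90 against 0.05 to 0.26. The same 2 mice had the highest forebrain excitatory neuron scores, 0.19 and 0.22, and striatal neuron scores, 0.13 and 0.15, and the lowest GABA neuron scores, -0.16 and -0.09, and choroid plexus scores, -0.22 and -0.48. NW mouse 10 also had the highest share of counts from ribosomal RNA. The olfactory bulb score was 0.22 to 0.46 in WW, -0.53 to 0.15 in NW, -0.89 to 0.34 in Water-Ethanol and -0.65 to 0.18 in NE. It was lowest in Water-Ethanol mouse 15, NE mouse 4 and NW mouse 11. Its part in the comparisons with WW was not tested beyond a fit with covariates. The trend of log2 counts on transcript GC content also differed between libraries, with slopes per 10 points of GC from -0.078 to -0.037 in WW and from -0.020 to 0.12 in the treated mice, the highest in NW mouse 7. In whole-brain RNA, fewer cells of a type and less RNA per cell cannot be told apart.

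Gria2 had the highest level of the family, with a mean of 120 ± 7.51 FPKM (SD, n = 16 mice). Gria1 followed with 98.7 ± 2.02 FPKM, then Gria3 with 56.7 ± 2.49 and Gria4 with 54.8 ± 5.14. Among the kainate genes Grik5 was highest, with 47.1 ± 2.91 FPKM, followed by Grik2 with 17.4 ± 1.02, Grik3 with 14.7 ± 0.853, Grik4 with 6.52 ± 0.299 and Grik1 with 5.13 ± 0.342. The order between neighbours held in all 16 mice except in 2 places. Gria3 was above Gria4 in 9 of 16 mice, so by FPKM these neighbours did not differ beyond their spread. Gria4 was above Grik5 in 14 of 16, the exceptions being WW mouse 21 and NW mouse 10. The scale mattered for part of this order. When levels were computed as counts scaled for exonic length and library total, Gria2 (90.4) was above Gria1 (89.0) in 10 of 16 mice, Grik5 (45.5) was above Gria4 (37.4) in 16 of 16, and the order of the other kainate genes did not change. Gria3 (50.1) was above Grik5 in 15 of 16 mice on that scale, so Gria3 and Gria4 were no longer neighbours.

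**Figure D1:**
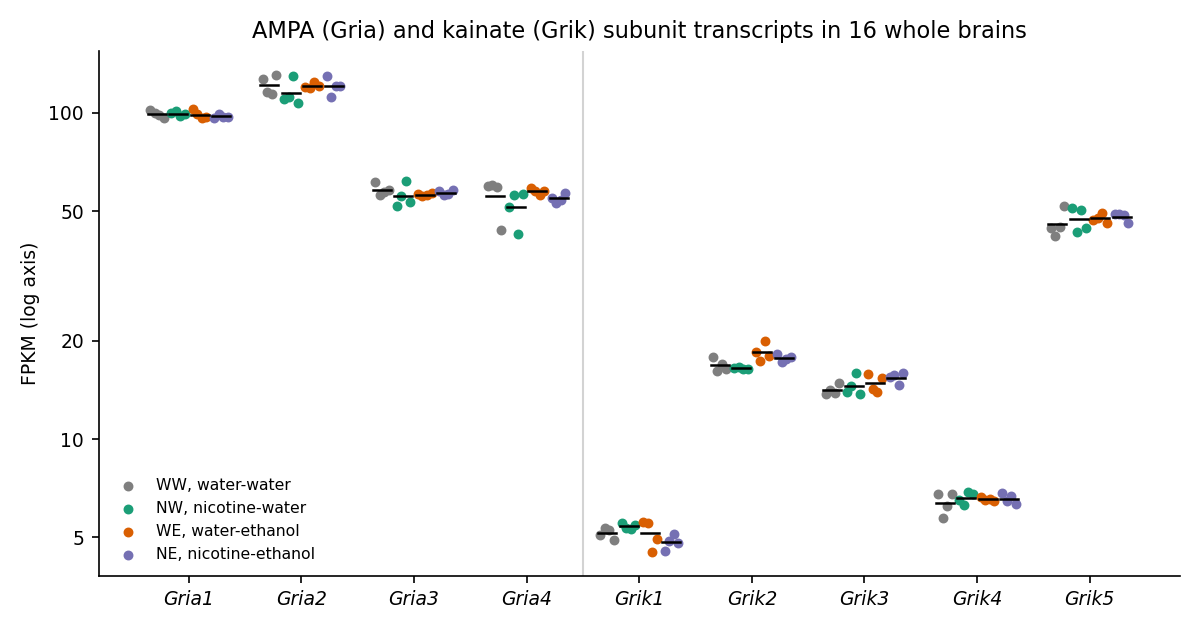
FPKM (log axis) of the 9 subunit genes in each of the 16 mice, coloured by group, with a black bar at the mean of the 4 mice of a group. The AMPA genes lie between 42.6 and 131 FPKM and the kainate genes between 4.51 and 51.7, and the low pair of Gria4 points are WW mouse 21 and NW mouse 10.

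Summed over the family, the AMPA genes came to 313 to 349 FPKM per mouse (median 331) and the kainate genes to 83.2 to 94.7 (median 91.9). The AMPA share of the family's summed FPKM had a median of 78.3% and was 77.0% at its lowest. Within the AMPA genes, Gria2 took 33.8% to 39.8% of the summed FPKM, Gria1 a median of 29.7%, Gria3 16.5% to 18.6% and Gria4 12.8% to 18.1%. Within the kainate genes, Grik5 took 50.2% to 54.7%, Grik2 17.3% to 21.2%, Grik3 14.8% to 17.5%, Grik4 6.87% to 7.80% and Grik1 4.79% to 6.41%. Within the kainate genes Grik2 had a mean share of 19.2% ± 1.29 for WW mice and 18.3% ± 0.982 for NW mice (SD, n = 4). With ethanol its mean share was 20.0% ± 0.903 in the Water-Ethanol mice and 19.1% ± 0.515 in the NE mice. Transcript levels do not give the subunit makeup of receptors, and editing and the flip and flop splice forms of the AMPA genes were not measured in these tables.

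The spread over the 16 mice differed between members. Gria1 was the steadiest, with a coefficient of variation of 2.36% in normalized counts (counts scaled by the TMM factors of edgeR to a common library size), from 15141 to 16298. Gria4 had 9.68% and a range of 5055 to 7449, the widest over all 16 mice, but 3.83% without WW mouse 21 and NW mouse 10. Gria2 had 7.72% and a range of 17330 to 22901, and 7.45% without those mice. The other members lay between 4.40% for Grik4 and 6.79% for Grik1. The least abundant members still had 466 (Grik1) and 587 (Grik4) raw counts in their lowest library.

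The treated groups were each set against WW in edgeR's quasi-likelihood test, and a gene counted as called where the p adjusted by Benjamini-Hochberg over all genes was below 0.05. In the comparison of nicotine alone with water, 0 of the 9 members were called, beside 0% of the 15344 genes tested. At an unadjusted p below 0.05 it was 1 member, Gria2, beside 8.44% of all genes. The median log2 difference of the members was 0.01, as was the median of all genes, and 5 members lay above 0 and 4 below. The count by DESeq2 was likewise 0 members, while that tool called 122 genes over the table.

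Gria2, which encodes the subunit that sets calcium permeability, had the widest difference in NW. Its normalized counts were 22901, 20907, 20201 and 22850 in the WW mice 18, 19, 20 and 21, and 17330, 19112, 22280 and 18652 in the NW mice 7, 8, 10 and 11. Of the 4 NW mice, 3 lay below every WW mouse and NW mouse 10 lay among them, so the groups overlapped. The share of counts from Rn45s, the ribosomal RNA precursor, was 1.371% in NW mouse 7 and 3.9% in NW mouse 10, against 0.274% to 0.467% in WW, and its part in the Gria2 and Gria3 values was not tested. The log2 difference was -0.17 (SE 0.0742, 95% interval -0.33 to -0.00), with an adjusted p of 0.591 in edgeR's quasi-likelihood test, and an exact two-sided permutation test of the counts gave p = 0.114 where the smallest value possible was 0.0286. Gria3, an X-linked subunit gene that pairs with Gria2 in many neurons, had 7814 to 8479 normalized counts in WW and 6883 to 8759 in NW, a log2 difference of -0.08 (SE 0.0672, adjusted p = 0.764). Its lowest value was again in NW mouse 7 and its highest in NW mouse 10, and the difference was -0.04 without the former and -0.16 without the latter. Gria1, the subunit gene most tied to activity-dependent insertion of receptors, differed by 0.01 (SE 0.0388).

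None of the kainate genes passed the test in NW. Grik2, the main channel-forming kainate subunit of the forebrain, had 2239 to 2458 normalized counts in WW and 2234 to 2322 in NW, a log2 difference of -0.03 (SE 0.0429). The high-affinity subunit genes Grik4 and Grik5 had log2 differences of 0.07 (SE 0.0653) and 0.05 (SE 0.0741), Grik1 of 0.05 (SE 0.0532) and Grik3 of 0.04 (SE 0.0569), with adjusted p from 0.802 to 0.866.

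**Figure D2:**
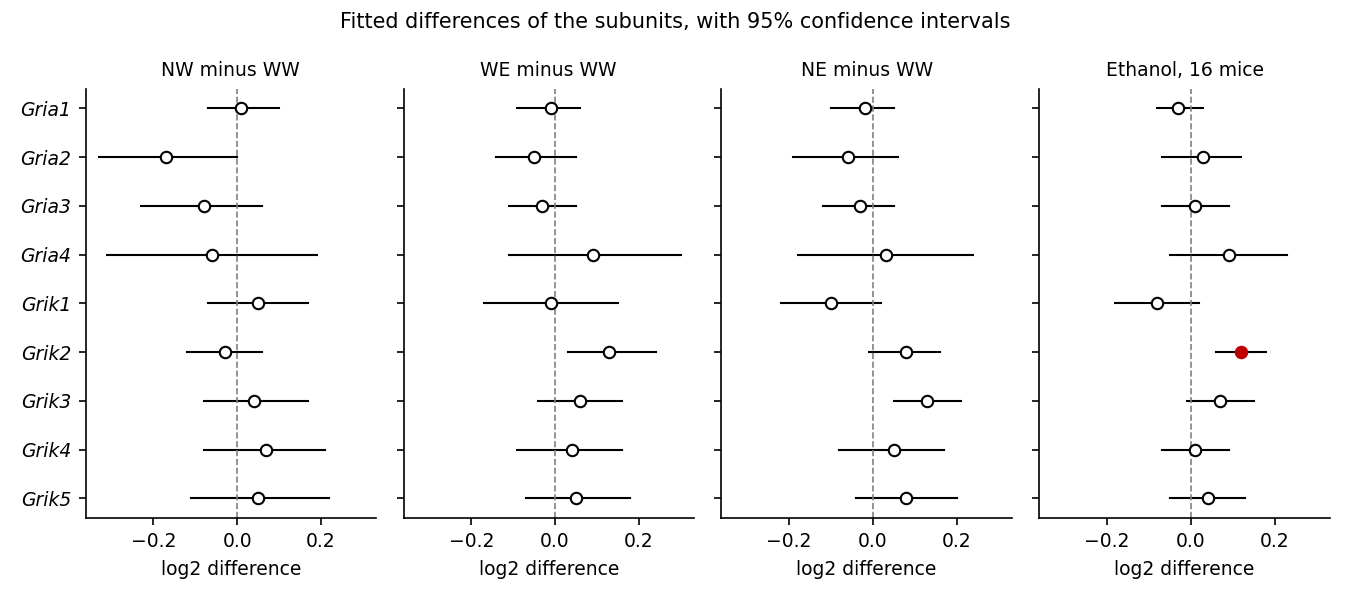
Log2 differences of the 9 subunit genes (points) with 95% confidence intervals (lines) in 4 comparisons, each treated group minus WW (4 against 4 mice) and the ethanol effect over all 16 mice. A filled red point marks an adjusted p below 0.05, which holds for Grik2 in the ethanol effect, at 0.12, and for no other point.

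In the comparison of ethanol alone with water, 0 of the 9 members were called, beside 0.457% of the 15323 genes tested (70 genes). At an unadjusted p below 0.05 it was 1 member, Grik2, beside 19.3% of all genes. Grik2 had 2564, 2405, 2743 and 2489 normalized counts in the Water-Ethanol mice 13, 14, 15 and 16, against 2458, 2267, 2346 and 2239 in WW. Of the 4 Water-Ethanol mice, 3 were above every WW mouse and mouse 14 fell below WW mouse 18. The forebrain excitatory neuron score was -0.18 to -0.07 in the Water-Ethanol mice and 0.00 to 0.19 in WW, without overlap. The summed FPKM of the same markers did overlap, at 839 to 912 against 901 to 1090. For the astrocyte markers (6 of 6 passed, none at 0) the summed FPKM was 741 to 764 against 778 to 838, without overlap. Their score was -0.10 to 0.00 against 0.00 to 0.13, so the groups met. The part of these markers in the Grik2 difference was not tested. The log2 difference was 0.13 (SE 0.0468, 95% interval 0.03 to 0.24), with an adjusted p of 0.152 in edgeR's test and p = 0.0571 in the exact permutation test. With the granule cell and olfactory bulb scores as covariates it was 0.07 (adjusted p = 0.595). DESeq2 also called 0 members in this comparison, although it called 590 genes over the table.

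The other members stayed close to 0 with ethanol alone. Gria1 differed by -0.01 (SE 0.0357), Gria3 by -0.03 (SE 0.0354) and Gria2 by -0.05 (SE 0.0439) on the log2 scale, so that their 95% intervals lay within -0.14 and 0.06. Gria4 differed by 0.09 with an interval of -0.11 to 0.30, the widest of the family, and without WW mouse 21 its difference was -0.02. Grik1 had 478 and 508 normalized counts in Water-Ethanol mice 15 and 16 and 590 in mice 13 and 14, on both sides of the WW range of 527 to 564, and its difference was -0.01 (SE 0.0727).

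In the comparison of nicotine and ethanol together with water, 0 of the 9 members were called, beside 0.313% of the 15313 genes tested (48 genes). At an unadjusted p below 0.05 it was 1 member, Grik3, beside 17.5% of all genes. Grik3 encodes a channel-forming kainate subunit of low glutamate affinity. Its normalized counts were 3896, 4010, 3698 and 4035 in the NE mice 2, 3, 4 and 5, and 3450, 3608, 3527 and 3722 in WW. Of the 4 NE mice, 3 were above every WW mouse, and NE mouse 4 fell below WW mouse 21. The log2 difference was 0.13 (SE 0.0388, 95% interval 0.05 to 0.21), with an adjusted p of 0.136 in edgeR's test and of 0.0578 to 0.445 under the alternative settings. DESeq2 called 0 members here and 517 genes over the table.

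Grik2 had 2481, 2381, 2436 and 2502 normalized counts in NE. Its log2 difference from WW was 0.08 (SE 0.0392, 95% interval -0.01 to 0.16) with an adjusted p of 0.344. Grik1 differed by -0.10 (SE 0.0569), Grik5 by 0.08 (SE 0.0544) and Grik4 by 0.05 (SE 0.0592), and the AMPA genes lay between -0.06 and 0.03. These 3 comparisons share their 4 WW mice, so the values of a member in them are not independent of each other.

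The addition of nicotine to ethanol was tested by comparing NE with Water-Ethanol. The paper reports that NE mice drank more ethanol in the last session and had higher blood ethanol than Water-Ethanol mice. Nicotine and a larger ethanol dose thus cannot be told apart here or in the interaction. Of the 9 members 0 were called, beside 0% of the 15319 genes tested, and 0 had an unadjusted p below 0.05, beside 5.8% of all genes. The members' log2 differences ran from -0.09 for Grik1 (95% interval -0.25 to 0.07) to 0.07 for Grik3 (-0.03 to 0.16). The interval of Gria4 was -0.14 to 0.01 and that of Grik2 -0.15 to 0.03. The AMPA genes Gria1, Gria2 and Gria3 all had intervals within -0.12 and 0.08. DESeq2 called 0 members and 2 genes over the table. Over the 36 exact permutation tests of the 9 members in the 4 comparisons of 2 groups, the smallest p was 0.0571 and no member's groups were free of overlap. How often other genes of the table were free of overlap was not counted, so this cannot be set against a background.

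Ethanol over nicotine was tested in 1 fit of all 16 mice, with the mean of Water-Ethanol and NE against the mean of WW and NW. In that fit 1 of the 9 members was called, Grik2, and it rose, beside 4.5% of the 15592 genes tested (702 genes, 458 higher and 244 lower). At an unadjusted p below 0.05 it was again 1 member, beside 22.9% of all genes, so the count rests on a single gene. Grik2 had 2381 to 2743 normalized counts in the 8 mice with ethanol (median 2485) and 2234 to 2458 in the 8 without (median 2279). Of the 8 ethanol mice, 5 were above every mouse without ethanol, and 7 of the 8 mice without ethanol were below every ethanol mouse, WW mouse 18 being the exception. The log2 difference was 0.12 (SE 0.0297, 95% interval 0.06 to 0.18), a difference of 8.58%, with an adjusted p of 0.0303 in edgeR's quasi-likelihood test. The call was lost when the cerebellar granule cell and olfactory bulb scores were added as covariates (0.10, adjusted p = 0.108), and in 9 of the 16 fits that left out 1 mouse (WW mouse 19, 20 or 21, Water-Ethanol mouse 13 or 15, NW mouse 8, or NE mouse 2, 4 or 5). Over these 16 fits the adjusted p was 0.019 to 0.0683 and the difference 0.10 to 0.13, the smallest without Water-Ethanol mouse 15. That mouse had the highest Grik2 count and the lowest olfactory bulb score, and the part of the bulb in the result was not tested beyond the covariates. The call held without the 2 mice low in cerebellar genes together (0.11, adjusted p = 0.0406) and with a correction for GC content (0.11, adjusted p = 0.0429). With the GC correction Grik2 was also above WW in NW, at 0.12 (adjusted p = 0.909), beside 0.19 in Water-Ethanol and 0.16 in NE. Its interaction was then -0.14 (SE 0.063, unadjusted p = 0.0339 and adjusted p = 0.886 in edgeR's test). The averaged 0.11 was thus not shown to be an equal rise with and without nicotine.

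**Figure D3:**
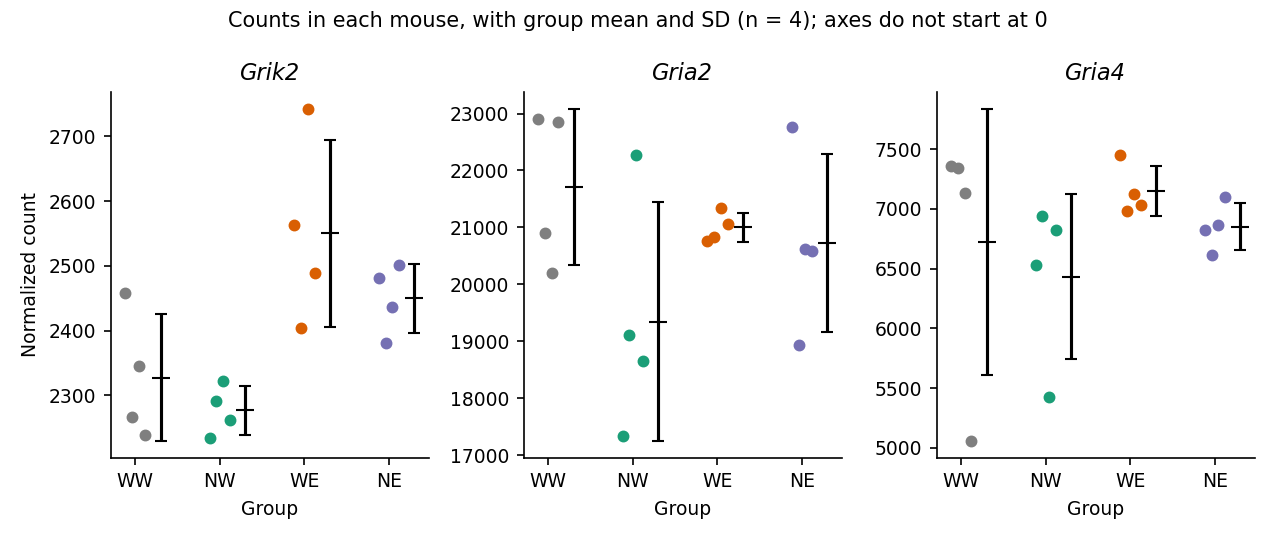
Normalized counts of Grik2, Gria2 and Gria4 in each mouse (points) by group, with the group mean and SD beside them (bars, n = 4), on axes that do not start at 0. Grik2 reaches 2458 at most in mice without ethanol and is 2381 or more in mice with it, 3 of the 4 NW values of Gria2 lie below the WW values, and the lowest Gria4 value of WW and of NW stands apart from the rest of its group.

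The remaining members in the ethanol effect had log2 differences from -0.08 for Grik1 (SE 0.0466, 95% interval -0.18 to 0.02) to 0.09 for Gria4 (SE 0.0648, adjusted p = 0.425). Grik3 differed by 0.07 (SE 0.0379, adjusted p = 0.256). Gria1, Gria2 and Gria3 differed by -0.03, 0.03 and 0.01, with intervals that lay between -0.08 and 0.12. Of the 9 members, 7 lay above 0 and 2 below, with a median of 0.03 against 0.00 over all genes.

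The nicotine effect over ethanol came from the same fit. In it 0 of the 9 members were called, beside 0% of all genes, and 0 had an unadjusted p below 0.05, beside 10.3% of all genes. Gria2 had the largest difference, -0.09 (SE 0.0467, 95% interval -0.19 to 0.00), and the others lay between -0.06 for Gria4 and 0.06 for Grik3. DESeq2 called 0 members and 109 genes over the table. In the interaction of nicotine and ethanol 0 of the 9 members were called, beside 0% of all genes, and 0 had an unadjusted p below 0.05, beside 6.76%. The interaction was 0.15 for Gria2 (95% interval -0.05 to 0.34) and -0.13 for Grik1 (-0.33 to 0.06), and that of Grik2 was -0.03 (-0.15 to 0.10), so the ethanol difference of Grik2 was not shown to differ between mice with and without nicotine. DESeq2 called 0 members and 1 gene in the interaction.

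Gria4 moved with the amount of cerebellar transcript in the library. It had 5055 normalized counts in WW mouse 21 and 5427 in NW mouse 10, against 6532 to 7449 in the other 14 mice. Both values were below all others. Gabra6, the GABA receptor subunit gene that marks cerebellar granule cells, had 1070 and 1655 normalized counts in those 2 mice and 3423 to 4487 in the rest, and the Purkinje cell gene Pcp2 had 195 and 384 against 864 to 1171. Over the 16 mice Gria4 and Gabra6 had a Pearson's r of 0.976, the highest of the 15583 genes compared with Gria4, and over the 14 other mice r was 0.869. Of the other members, Grik5 was highest in these 2 mice (5634 and 5611, against 4597 to 5499), and none was lowest in both. The effect of WW mouse 21 on the Gria4 comparisons was visible in each of them. Without it the log2 difference moved from -0.06 to -0.17 in NW, from 0.09 to -0.02 in Water-Ethanol and from 0.03 to -0.09 in NE, and in none of these fits was Gria4 called. Grik5 moved too, from 0.05 to 0.12 in NW, from 0.05 to 0.12 in Water-Ethanol (adjusted p = 0.0892) and from 0.08 to 0.14 in NE (adjusted p = 0.0691), and was not called either. Without NW mouse 10 the NW difference was 0.00 for Gria4 and 0.01 for Grik5. Without both of these mice the NW difference of Gria4 was -0.10 (SE 0.0449).

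**Figure D4:**
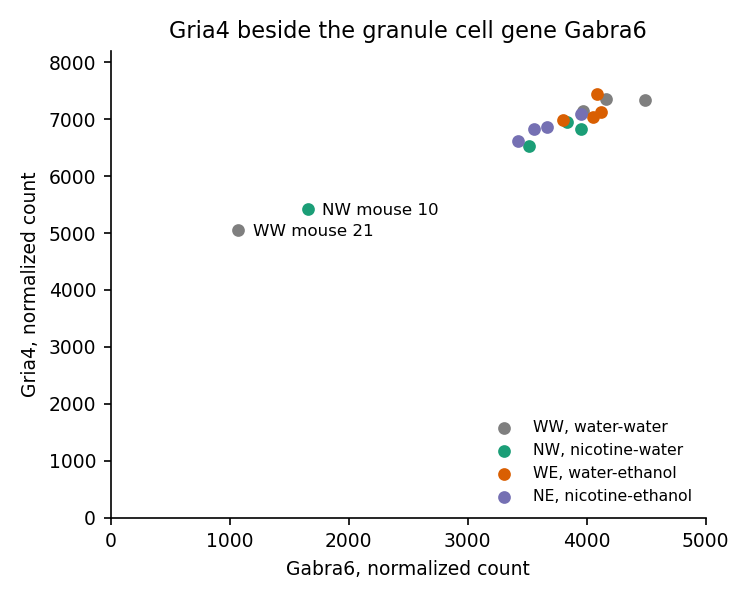
Normalized counts of Gria4 (vertical axis) against those of the granule cell gene Gabra6 (horizontal axis), 1 point a mouse, coloured by group. The 14 mice between 3423 and 4487 Gabra6 counts lie between 6532 and 7449 Gria4 counts, and WW mouse 21 and NW mouse 10 are low in both.

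The differences of the low-GC members from WW moved with the correction for GC content. All 4 WW libraries had a lower slope of log2 counts on GC than any treated library, so this property and treatment cannot be told apart in comparisons with WW. Transcripts of Gria2 and Grik2 are among the lowest in GC, with 1.02% and 2.03% of the genes tested below them, and 2.07% of the genes tested are above Grik5. With the correction, the log2 difference of Gria2 between NW and WW was 0.00 (SE 0.0685) in place of -0.17, and that of Gria3 was 0.03 in place of -0.08. Grik2 turned from -0.03 to 0.12 (SE 0.0463) in NW, with an adjusted p of 0.909, and was 0.19 (SE 0.0472, adjusted p = 0.0938) in Water-Ethanol and 0.16 (SE 0.0356, adjusted p = 0.123) in NE. Its interaction of nicotine and ethanol was then -0.14 (SE 0.063, adjusted p = 0.886). Grik5, at the other end of GC content, moved from 0.05 to -0.01 in NW and from 0.08 to near 0 in NE. NW mouse 7, with the highest slope, had the lowest Gria2 and Gria3 counts of all 16 mice. Without it Gria2 differed by -0.12 between NW and WW, and without NW mouse 10 by -0.25. The part of GC content in these differences was not tested beyond the correction.

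**Figure D5:**
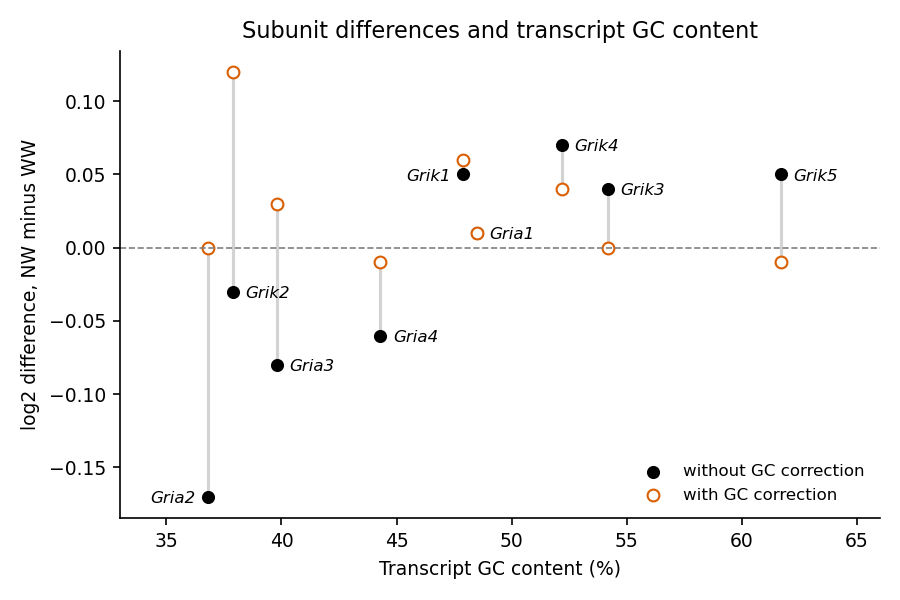
Log2 difference between NW and WW of each subunit gene against the GC content of its longest transcript (%), without (filled) and with (open) the correction for GC content. Gria2, at 36.8% GC, moves from -0.17 to 0.00, Grik2, at 37.9%, from -0.03 to 0.12, and Gria1, at 48.5%, stays at 0.01 with its points on top of each other.

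Members also varied together across mice. Gria2 and Gria3 had a Pearson's r of 0.91 over the 16 mice, and 0.90 after removal of group means. Gria4 and Grik5 had -0.69, Grik4 and Grik5 had 0.66, and Gria1 and Grik1 had 0.61. Without the 2 mice farthest from the median of the first gene, these were 0.81, -0.57, 0.39 and 0.43. These are descriptions over shared libraries that also differ in cerebellar share and GC slope. The gene outside the family nearest to each member by r over the 16 mice was Kcnj3, a potassium channel gene, for Gria1 (0.85), Celf2, an RNA-binding protein gene, for both Gria2 (0.93) and Gria3 (0.91), Gabra6 for Gria4 (0.98), Abcf1 for Grik1 (0.88), Med12l, a Mediator subunit gene, for Grik2 (0.90), Oxtr, the oxytocin receptor gene, for Grik3 (0.88), Gpr61, an orphan receptor gene, for Grik4 (0.89) and Ankrd13b for Grik5 (0.95). Without the 2 mice farthest from the member's median these r were 0.79 to 0.94. The transcripts of Grik5 and Ankrd13b were alike in GC content, 61.7% and 61.3%, and those of Gria2 and Celf2 lay below the median, at 36.8% and 42.1%.

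Genes whose products work with these receptors were read from lists chosen by role. The AMPA auxiliary and assembly list holds 20 genes, among them 6 TARP genes (Cacng2, Cacng3, Cacng4, Cacng5, Cacng7 and Cacng8), the cornichons and the assembly factors Frrs1l and Porcn, and 19 were tested. In each of the 7 comparisons 0 of the 19 were called. At an unadjusted p below 0.05 it was 0 of them in NW, 2 in Water-Ethanol, 1 in NE and 3 in the ethanol effect, beside 8.44%, 19.3%, 17.5% and 22.9% of all genes, so the list lay below the share over the table in each. DESeq2 called 1, Abhd6 in NE. Of the 19, 14 lay above 0 in NW (median log2 difference 0.03, against 0.01 over all genes), 7 in Water-Ethanol (median -0.04, against 0.00) and 11 in NE (median 0.02, against 0.00). It was 17 both in NE against Water-Ethanol and in the nicotine effect (median 0.04 in each). In the ethanol effect it was 8 (median -0.03) and in the interaction 12 (median 0.02), again against 0.00 over all genes. The genes share libraries, so these counts are not a test of the list. The lowest p of the list belonged to Abhd6, an AMPA receptor-binding hydrolase gene, in NE, with 1670, 1739, 1657 and 1679 normalized counts against 1534, 1505, 1552 and 1534 in WW. These groups did not overlap, but Abhd6 was named for its low p, so this is not separate support. Genes without overlap were not counted over the table. The log2 difference was 0.14 (SE 0.0359), with an adjusted p of 0.0890 in edgeR's test and 0.0367 in DESeq2. No other setting called Abhd6. Porcn had the lowest p of the list in both NW and Water-Ethanol, at 0.12 in each (adjusted p = 0.665 and 0.243), and Frrs1l in the comparison of NE with Water-Ethanol, at 0.10 (adjusted p = 0.834). Cacng3 had it in the ethanol effect, at -0.13 (SE 0.0488, adjusted p = 0.116), and in the nicotine effect, at 0.09 (adjusted p = 0.572), and Cacng8 in the interaction, at 0.16 (adjusted p = 0.812). Without the 2 mice low in cerebellar genes the ethanol effect of Cacng3 was -0.07 (adjusted p = 0.243 in edgeR's test). With marker score covariates it was -0.06 (adjusted p = 0.41).

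The kainate auxiliary genes Neto1 and Neto2, whose products slow the kinetics of kainate receptors, were called by edgeR's quasi-likelihood test in none of the 7 comparisons. Before adjustment, p was below 0.05 for 1 of the 2 in NW, both in Water-Ethanol and both in the interaction, beside 8.44%, 19.3% and 6.76% of all genes, and neither in the other 4 comparisons. Neto1 had 2634, 2507, 2635 and 2737 normalized counts in WW and 2311, 2279, 2449 and 2320 in Water-Ethanol. Every Water-Ethanol mouse was below every WW mouse. Neto1 was named for its low p, so this is not separate support, and genes without overlap were not counted over the table. The log2 difference was -0.16 (SE 0.0392), with an adjusted p of 0.0747 in edgeR's test. DESeq2 (adjusted p = 0.0162) and the likelihood-ratio test (0.0237) called Neto1, and no other setting did. Under the other settings the adjusted p was 0.0504 to 0.218, and with the GC correction the difference was -0.12 (adjusted p = 0.183). Neto1 also had the lower p of the pair in NE, at -0.08 (adjusted p = 0.391), and in the ethanol effect, at -0.06 (adjusted p = 0.467). Neto2 differed by -0.21 (SE 0.0879, adjusted p = 0.547) in NW, by 0.08 (adjusted p = 0.834) between NE and Water-Ethanol and by -0.07 (adjusted p = 0.710) in the nicotine effect, and its interaction was 0.30 (SE 0.104, adjusted p = 0.678). With the GC correction these were -0.05 (SE 0.0663), 0.11 (SE 0.0367), 0.03 (SE 0.0401) and 0.17 (SE 0.0801). The lowest Neto2 count, 3112, was in NW mouse 7.

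Of the 22 scaffold and trafficking genes, 1 was called in NE and 0 in each of the other 6 comparisons, beside 0.313% of all genes in NE. An unadjusted p below 0.05 was found for 6 of 22 in NE and 3 in both NW and Water-Ethanol, beside 17.5%, 8.44% and 19.3% of all genes. In the ethanol effect it was 6, beside 22.9%, in the nicotine effect 3, beside 10.3%, in NE against Water-Ethanol 3, beside 5.8%, and in the interaction 1, beside 6.76%. Shank2, a scaffold gene of the postsynaptic density, rose in NE, with 5981, 6098, 6063 and 5797 normalized counts against 5265, 5302, 5306 and 5312 in WW. Every NE mouse was above every WW mouse, but Shank2 was named because it was called, so this is not separate support. Genes without overlap were not counted over the table. The log2 difference was 0.18 (SE 0.0312, 95% interval 0.11 to 0.25) with an adjusted p of 0.0453 in edgeR's test. The call was lost under 7 other settings, with differences of 0.13 to 0.18, and in 7 of the 8 fits without 1 mouse. With a correction for GC content it was 0.13 (adjusted p = 0.122). DESeq2 called Shank2 and also Shank3 in NE, and Nrn1 in Water-Ethanol and in the ethanol effect. The neuritin gene Nrn1, which is induced by activity, had the lowest p of the list in Water-Ethanol, at -0.19 (SE 0.0439, adjusted p = 0.0680), and in the ethanol effect, at -0.14 (SE 0.0406, adjusted p = 0.0578). The likelihood-ratio test also called Nrn1 in both (adjusted p = 0.0136 and 0.0329). So did the length correction in Water-Ethanol (0.046) and the GC correction in the ethanol effect (0.0432). Of the fits without 1 mouse, 1 of 8 and 3 of 16 called it. Nptxr, which encodes the neuronal pentraxin receptor of AMPA receptor clusters, had the lowest p in NW, at -0.47 (SE 0.162, adjusted p = 0.431), and in the nicotine effect, at -0.36 (SE 0.114, adjusted p = 0.283). By limma on log2(FPKM + 1) these were -0.31 (SE 0.154) and -0.22 (SE 0.104). Nptxr had 349 to 783 normalized counts at a mean of 50.4 FPKM, while Homer1 had 4301 to 7317 at 60.8 FPKM. The reason for this gap between the 2 scales was not tested. Homer1, a scaffold gene, had it between NE and Water-Ethanol, at 0.17 (adjusted p = 0.834), and Lrrtm2, an adhesion protein gene, in the interaction, at 0.31 (adjusted p = 0.678).

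The 3 RNA editing enzyme genes had 0 calls by edgeR's quasi-likelihood test in all 7 comparisons. An unadjusted p below 0.05 was found for 1 of the 3 in Water-Ethanol, in NE and in the ethanol effect, beside 19.3%, 17.5% and 22.9% of all genes, and 0 in the other 4. Adar, which encodes an adenosine deaminase of double-stranded RNA, had the lowest p among them in NE, at 0.11 (SE 0.0311, adjusted p = 0.118, and called by DESeq2), and lay at 0.04 to 0.07 in NW, Water-Ethanol, NE against Water-Ethanol and the ethanol and nicotine effects. In the ethanol effect limma on log2(FPKM + 1) called Adar, at 0.07 (adjusted p = 0.0479), where edgeR gave 0.06 (adjusted p = 0.147). In the interaction it was Adarb2, at 0.09 (adjusted p = 0.898).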

How the data were processed

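RNA-seq of 16 whole brains was analysed, 4 mice in each group of the labels. The authors trimmed reads with Trimmomatic 0.32, aligned them with TopHat2 to mm10 (GRCm38) and deposited 1 table of raw, whole-number counts of reads and 1 of FPKM, made with Cufflinks and Cuffdiff, whose values carry no depth. The program that counted reads and its strand setting are not given in the sources used here, and the labels name an unstranded form of a library kit that the methods call stranded. The members and gene lists were chosen with earlier results of these data known.

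Counts were tested with edgeR 4.0.16 in R 4.3.3 (quasi-likelihood test, TMM factors, filterByExpr, Benjamini-Hochberg over all genes, threshold 0.05), in fits of the 2 groups compared or, for ethanol, nicotine and interaction, of all 16 mice. SE is the absolute log2 difference over the root of the F statistic. For single members an exact two-sided permutation test was run on normalized counts (scipy 1.17.1). Named were all 9 members, each list's called genes or else its gene with the lowest p, and the gene of highest Pearson's r with each member. Lists, positions and GC content came from the count table and GENCODE vM21, and 97.1% of genes had a GC value. Alternatives were RLE factors, DESeq2 1.42.0, edgeR's likelihood-ratio test, no filter, limma 3.58.1 on log2(FPKM + 1) and log2(FPKM + 0.1), marker score covariates, GC and length corrections, a fit of all 16 mice, and leaving out each mouse. Leaving out both mice low in cerebellar genes was added after the data were seen. The tests were also run on simulated counts with known changes. One further list of related genes is not reported here.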

Additional observations from a re-analysis of the deposited data

Results flagged for a closer look

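Gria4 in WW mouse 21 had 5055 normalized counts, a low value that stood apart from the other WW mice. The next lowest was 7136, and the gap was 0.902 of the group's whole range, above Dixon's 95% critical value for 4 samples. This was 1 of 36 groups of 4 values tested (9 genes in 4 groups), and chance flags about 1 in 20. The same library was low in the cerebellar genes, with 1070 counts of Gabra6 and 195 of Pcp2.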

How the results depend on the processing

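The count of members called in the ethanol effect was 1, and it was 0 with marker score covariates and 0 to 1 when 1 mouse was left out. The cause was not tested for these or for the changes of sign that follow, all of log2 differences that passed no threshold. With the GC correction the values were 0.03 (Gria3), 0.12 (Grik2) and -0.01 (Grik5) for NW against WW, 0.01 (Gria2) and 0.01 (Gria3) for Water-Ethanol against WW, 0.02 (Gria2) and 0.04 (Gria3) for NE against WW, 0.01 (Gria2) and -0.01 (Grik5) for NE against Water-Ethanol, 0.03 (Gria3), 0.04 (Grik2), -0.01 (Grik5) and 0.03 (Neto2) for the nicotine effect and -0.01 (Gria3) for the interaction. With marker score covariates they were 0.01 (Grik2, NW), 0.10 (Grik1) in Water-Ethanol, 0.01 (Gria2) and -0.06 (Gria4) in NE, and -0.02 (Grik3, interaction). Both limma fits gave -0.01 for Gria4 in NE and -0.01 for Gria3 in the ethanol effect. The length correction gave -0.01 (Gria3, ethanol effect) and -0.03 (Grik3, interaction). Without both mice low in cerebellar genes, the ethanol effect was -0.01 for Gria4.

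With 1 mouse left out, values that changed sign ranged from -0.02 to 0.07 (Grik3, NW), -0.02 to 0.14 (Gria4), -0.06 to 0.04 (Grik1) and -0.01 to 0.07 (Grik4) in Water-Ethanol, -0.09 to 0.08 (Gria4, NE), -0.03 to 0.01 (Gria1), -0.07 to 0.02 (Gria2) and -0.01 to 0.03 (Grik4) for NE against Water-Ethanol, -0.02 to 0.04 (Gria3) and -0.02 to 0.02 (Grik4) in the ethanol effect, and -0.06 to 0.01 (Grik2) and -0.01 to 0.08 (Grik3) in the interaction.

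Over all genes, counts of calls that moved by over 1.5 times were, for NW against WW, 0 in edgeR's quasi-likelihood test and 122 with DESeq2, 113 with the likelihood-ratio test, 112 in the fit of all 16 mice and 5 with marker score covariates. For Water-Ethanol against WW they were 70 against 590 (DESeq2), 620 (likelihood-ratio test), 143 (no filter), 0 (both limma fits), 17 (covariates), 37 (GC), 146 (length) and 28 (all 16 mice), and for NE against WW 48 against 517, 375, 1 (both limma fits), 0 (covariates) and 9 (GC). For NE against Water-Ethanol they were 0 against 2 (DESeq2), 2 (likelihood-ratio test), 1 (no filter) and 1 (both limma fits). The ethanol effect had 702 against 1093 (DESeq2), 455 (covariates) and 1061 (both mice left out), the nicotine effect 0 against 109 and 54, and the interaction 0 against 1 with DESeq2, the likelihood-ratio test or covariates. With 1 mouse left out the ranges were 0 to 797 (Water-Ethanol), 0 to 283 (NE), 0 to 1 (NE against Water-Ethanol), 280 to 899 (ethanol effect) and 0 to 49 (nicotine effect).

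No paired analysis was possible because the groups share no mouse numbers. With 4 whole brains a group, regional changes could not be seen.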

Other observations

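The partner genes of the receptors spanned a wide range of levels per length. In the AMPA auxiliary and assembly list, mean levels over the 16 mice were 131 FPKM for Abhd12, 109 for Cnih2, a cornichon gene, 99.0 for Cacng7 and 79.7 for Frrs1l, against 10.6 for Cacng5 and 10.9 for Shisa6. Abhd12 had 120 to 142 FPKM and Cnih2 100 to 124 over the mice.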
